A study of Arabidopsis thaliana with 9 samples.

Results

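Small RNAs (sRNAs) of iron-deficient shoots were compared with those of iron-sufficient shoots. All 3 -Fe and all 3 +Fe libraries were taken, 6 of the 9 in the series, and every one of the 33171 features in the table was followed in each. The plants were wild-type *Arabidopsis thaliana*, ecotype Col-0. For +Fe, they spent 14 days, then 3 days, then 24 hours on media that held iron. For -Fe, the first 14 days were with iron, and the 3 days and the last 24 hours without it. The labels call the 3 samples of a condition biological replicates and also describe growth on soil, beside the treatment on Murashige and Skoog (MS) media. The table holds 29053 placed clusters (stretches of the genome where sRNA reads pile up, each named with its most abundant RNA, here the leading RNA), 326 miRNA entries and 3792 unplaced sequences. A value is a log2 normalized count, and library depth is unknown. Lower values from fewer cells of a type and from less of an RNA per cell cannot be told apart in whole shoots.

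Plant Dicer-like enzymes cut double-stranded precursors to set sizes, so the length of an RNA points to the pathway it may belong to. MicroRNAs are mostly 21 nt and guide the cleavage of matching mRNAs, while 24-nt siRNAs guide DNA methylation at transposons and intergenic repeats. RNAs outside these sizes also include pieces of mRNAs, tRNAs and rRNAs. The miR397, miR398, miR408 and miR857 families are known for repressing mRNAs of copper proteins, among them copper/zinc superoxide dismutases, laccases and plantacyanin.

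The miRNAs that fell are printed from the RefSeq annotation of TAIR10.1, since their shared sequences decide how the features below relate to each other. Capitals mark the seed, bases 2 to 8.
miR398a-3p: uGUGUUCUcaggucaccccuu
miR398b-3p: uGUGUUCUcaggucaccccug
miR398c-3p: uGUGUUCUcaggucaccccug
miR408-3p: aUGCACUGccucuucccuggc
miR397a: uCAUUGAGugcagcguugaug
miR397b: uCAUUGAGugcaucguugaug
miR857: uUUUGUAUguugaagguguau
The 3 miR398 species share 1 seed and the 2 miR397 species another. miR398b-3p and miR398c-3p are identical, so reads of the clusters at *MIR398b* and *MIR398c* cannot be told apart by sequence. miR398b-3p lies on chromosome 5 from 4691107 to 4691127, and miR408-3p on chromosome 2 from 19319933 to 19319953, both on the top strand.
Next are the leading RNAs of 4 other features, with the bases that differ from the annotated miRNA in capitals.
unplaced RNA of 21 nt: uguguucucaggucaccccCA
unplaced RNA of 20 nt: uguguucucaggucacccUG
leading RNA at *MIR398a*: uguguucucaggucaccccuA
leading RNA at *ARPN*: ugcacugccucuucccuUU
Both unplaced RNAs share their first bases with miR398b-3p, 19 in the longer and 18 in the shorter. Counted base by base from the 5′ end of miR398b-3p, without gaps, the longer one has U20C and G21A and the shorter one C19U and U20G. The shorter one also equals miR398b-3p with a C missing from the run of C before its UG end. The RNA at *ARPN* (plantacyanin, a copper protein) starts at base 2 of miR408-3p and matches it for 17 bases, followed by G19U and G20U. Neither this RNA nor the leading RNA at *MIR398a* has an exact match in TAIR10.1, so neither matches the genome within its cluster.

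When values were taken back from the log2 scale and summed, the 10 most abundant features made up 71.8% to 73.6% of a library, and 7 of them were clusters on the plastid genome. The most abundant were nuclear: Cluster_13547 on chromosome 3 and Cluster_4878 on chromosome 2, with back-transformed means of 3.08e+06 and 1.85e+06. Among the plastid clusters the highest mean was 487823. None of the 10 passed the test below. Pearson correlations over all features tested lay between 0.993 and 0.996 for any pair of the 6 libraries. The table holds sRNAs only, so shoot identity was not checked against marker transcripts.

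Of 33159 features tested (12 miRNA entries had the same value in every library), 167 passed, which here means an adjusted p (FDR) under 0.1 in limma, with Benjamini-Hochberg adjustment, and a change of 0.5 or more in either direction on the log2 scale. That is 0.504% of all features, with 0.268% higher and 0.235% lower in -Fe. The row types differed in direction. All 89 features that rose were placed clusters, 0.306% of clusters, and 69 clusters (0.237%) fell. Of the miRNA entries, 0 of 314 rose and 7 (2.23%) fell. Of the unplaced sequences, 0 of 3792 rose and 2 (0.0527%) fell. The median log2 fold change was -0.004 for clusters, 0.01 for miRNA entries and 0.02 for unplaced sequences. At an unadjusted p under 0.05, limma had 47 miRNA entries (14.97%) and 343 unplaced sequences (9.05%), beside 8.02% of all features. Unplaced sequences that rose numbered 9 without +Fe replicate 1, 2 without -Fe replicate 2 and 1 without -Fe replicate 1, and 1 miRNA entry rose without -Fe replicate 3. The 7 miRNA entries were also counted as clusters at the same genes, and 159 different RNAs lead the 167 features.

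**Figure D1:**
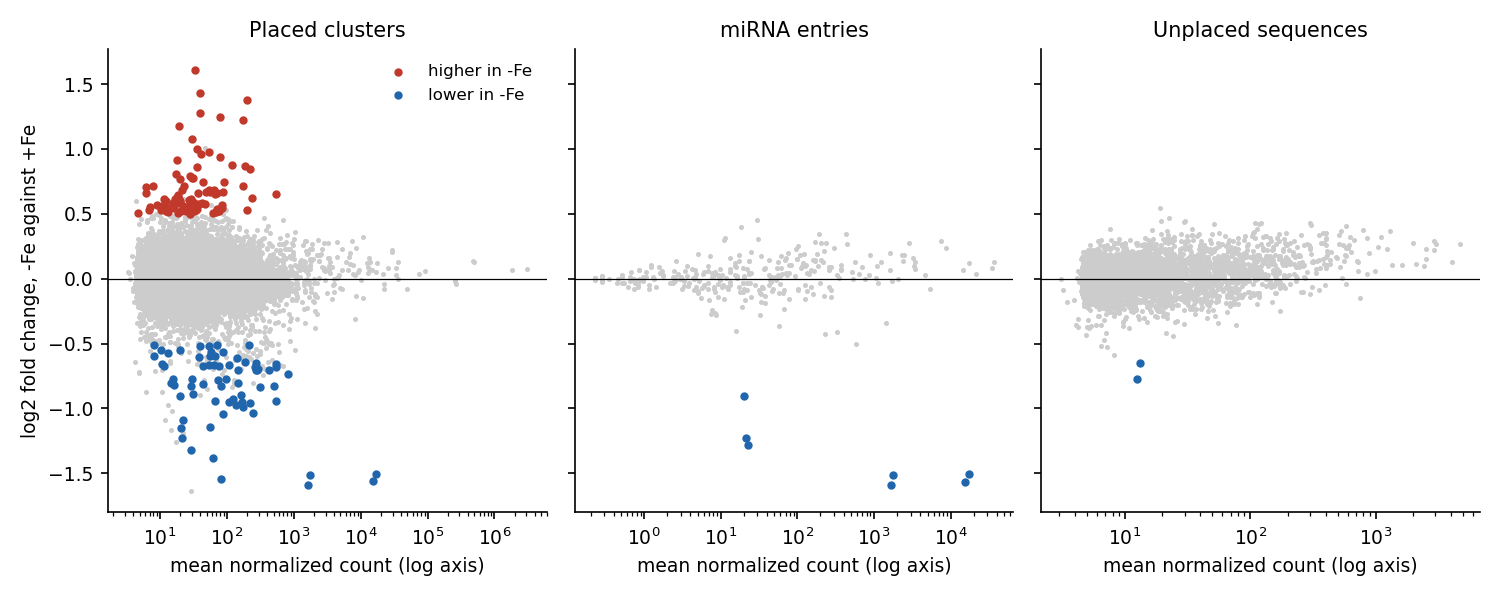
Log2 fold change of -Fe against +Fe (y axis) by mean normalized count on a log axis (x axis), 1 point per feature, for the 3 row types. Red and blue points passed the test; the 89 red points are all placed clusters, and the lowest blue points at high counts are the miR398 and miR408 features.

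The direction of change differed with abundance. Of the 226 features whose back-transformed mean was 1000 or more, 8 fell (3.54%) and 0 rose. These 8 are the 3 miR398 genes and *MIR408*, each present as a miRNA entry and as a cluster. Between 100 and 1000, 9 of 3733 features rose (0.241%) and 26 fell (0.696%). These 26 falls became 3 when only features of at least 50 were tested, 4 without +Fe replicate 3, 7 without -Fe replicate 3, 9 without -Fe replicate 1 or +Fe replicate 2, 51 without -Fe replicate 2 and 57 without +Fe replicate 1, while 8 to 11 rose in each of these fits. Between 10 and 100, 73 of 16829 rose (0.434%) and 42 fell (0.25%). Under 10, 7 of 12371 rose and 2 fell. The sources used here do not name the transformation behind the log2 values. A regularized logarithm would make fold changes of low features smaller than the change in counts. Among the features under 10 that passed, the largest rise was Cluster_15483 at *bHLH38* and the largest fall Cluster_24704 at *CYP94D1* (log2 fold change -0.59), a cytochrome P450 gene.

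All 7 miRNA entries of the copper group fell. *MIR398a* had log2 values of 9.81, 10.04 and 9.82 in -Fe and 11.59, 11.42 and 11.43 in +Fe. *MIR408* had 10.15, 9.99 and 9.96 in -Fe and 11.43, 11.60 and 11.60 in +Fe. *MIR397a* had 3.89, 3.92 and 3.79 in -Fe and 4.97, 5.05 and 5.42 in +Fe. In each of the 7, the 3 -Fe libraries lay below the 3 +Fe libraries, and the log2 fold changes ran from -1.59 (*MIR398a*) to -0.91 (*MIR857*). *MIR857* was the least even of them: it had 4.22 in +Fe replicate 1 and 5.05 in the other two +Fe libraries, against 3.83 to 3.90 in -Fe. The cluster at *MIR397a*, Cluster_1020, fell by 0.60 on the log2 scale, less than the miRNA entry of the same gene at -1.28.

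The other miRNA groups held no member that passed. Counts and median log2 fold changes were 0 of 39 and 0.05 for developmental families (miR156, miR159, miR166, miR172 and others), 0 of 13 and 0.09 for miR169, which targets NF-Y transcription factors, and 0 of 11 and 0.09 for auxin-related families. For families of phosphate supply (miR399, miR778, miR827 and miR2111) they were 0 of 10 and -0.05, and for miR395, of sulfate supply, 0 of 6 and 0.03. miR395 had the widest range of these families, from -0.28 to 0.45. The families that act on the silencing machinery (miR162, miR168 and miR403) had 0 of 5 and 0.07. Among the triggers of trans-acting siRNAs 0 of 5 passed, and at the *TAS* loci 0 of 6 clusters.

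The unplaced sequences that fell were the 2 miR398-like RNAs printed above. The 21-nt RNA had log2 values of 3.25, 3.23 and 3.29 in -Fe and 4.32, 3.82 and 3.96 in +Fe (log2 fold change -0.78, standard error 0.12, adjusted p = 0.00153, limma). The 20-nt RNA had 3.43, 3.40 and 3.40 in -Fe and 4.16, 4.01 and 4.01 in +Fe (log2 fold change -0.65, standard error 0.10, adjusted p = 0.00245, limma). Neither has an exact match in TAIR10.1. Cluster_5119 at *ARPN*, on chromosome 2 from 827571 to 827758 and led by the miR408-like RNA, had 3.06, 3.21 and 3.32 in -Fe and 3.76, 3.98 and 3.86 in +Fe (log2 fold change -0.67, standard error 0.10, adjusted p = 0.00128, limma). Its leading RNA does not match the genome within the cluster, so whether *ARPN* gives rise to this RNA was not tested. These 3 features fell with the miRNAs they resemble while *ARPN* itself is on the study's RNA-seq list of transcripts raised by iron deficiency. Cluster_5119 was named after its values were seen. Genes of that list had 130 clusters, of which 31 rose (23.8%, beside 0.268% of all features) and 1 fell. The 31 rises became 17 without +Fe replicate 2 and 18 without -Fe replicate 2.

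A separate set of unplaced sequences came from tRNAs. In 499 of 3792, the sequence equalled the 3′ end of an annotated tRNA followed by CCA, the bases that are added to tRNAs after transcription. Of the 499, 0 passed in limma and 70 had an unadjusted p under 0.05 (14.0%, beside 8.02% of all features), and their median log2 fold change was 0.08, with 0.11 for the 215 from nuclear tRNAs and 0.05 for the 227 from organelle tRNAs. At the same unadjusted p, limma had 51 of the 215 nuclear (23.7%) and 10 of the 227 organelle sequences (4.41%). The most abundant 3 are printed with the added CCA in capitals.
tRNA-Gln fragment: uucucgguagaaccuCCA
tRNA-Ser fragment: auccugccguucacgCCA
tRNA-Trp fragment: uucacgucggguucaCCA
The tRNA-Gln fragment had log2 values of 11.57, 11.67 and 11.87 in -Fe and 11.41, 11.50 and 11.40 in +Fe, and its adjusted p was 0.568 (limma). The tRNA-Ser fragment had 10.39, 10.38 and 10.80 in -Fe and 10.25, 10.15 and 10.08 in +Fe, with an adjusted p of 0.327 (limma). The -Fe libraries lay above the +Fe libraries in both, by less than the test requires. Of 400 clusters at tRNA genes 0 passed, with a median of 0.08 and 45 at an unadjusted p under 0.05 (11.25%, limma).

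Among placed clusters, direction varied with the length of the leading RNA. With a leading RNA under 20 nt, 31 of 4381 clusters rose (0.708%) and 4 fell (0.0913%). At 20 nt, 10 of 985 rose (1.02%) and 1 fell. At 21 nt, 15 of 1609 rose (0.932%) and 8 fell (0.497%), 7 of them at *MIR* genes. The 22-nt and 23-nt classes held 6 and 7 rises against 4 and 6 falls. At 24 nt the order turned, with 11 of 14590 rising (0.0754%) and 43 falling (0.295%). Over 24 nt, 9 of 1829 rose (0.492%) and 3 fell (0.164%). Median log2 fold changes were small, 0.03 for clusters under 20 nt and -0.02 for 24-nt clusters. Log2 fold changes were above 0 in 60.0% of clusters under 20 nt and in 42.2% of 24-nt clusters.

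**Figure D2:**
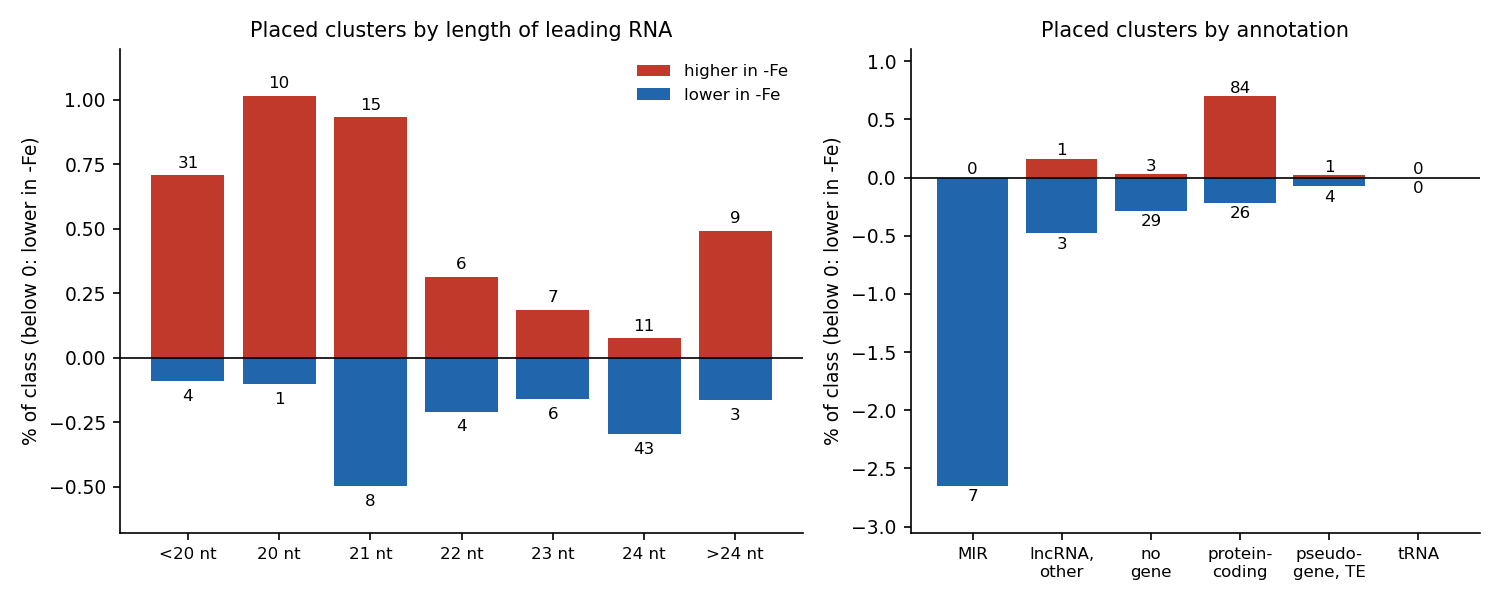
Placed clusters that passed, as a percentage of each class, by length of the leading RNA (left) and by annotation (right). Bars above 0 are clusters higher in -Fe, bars below 0 clusters lower in -Fe, and the numbers are counts; 24-nt clusters have 43 falls to 11 rises, and protein-coding genes 84 rises to 26 falls.

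These counts rested on single libraries to different degrees. The 31 rises under 20 nt became 17 without -Fe replicate 2. The 43 falls at 24 nt became 12 without -Fe replicate 1, 10 without -Fe replicate 3 and 14 without +Fe replicate 3, and 81 without -Fe replicate 2 and 90 without +Fe replicate 1. Rises at 24 nt numbered 12 without +Fe replicate 1 and 10 in each of the other fits just named. Of the 31 rises, 21 had a leading RNA that matches the genome within the cluster's own interval, as did 43 of the 43 falls at 24 nt.

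Shares of the summed values were compared by size class. Clusters under 20 nt took 49.0%, 48.8% and 49.5% of the back-transformed total of placed clusters in -Fe and 48.1%, 48.0% and 47.4% in +Fe. Without the 10 most abundant features, their mean share was 12.8% in -Fe (SD 0.33) and 12.2% in +Fe (SD 0.23). The 24-nt clusters took 10.001%, 10.026% and 9.724% in -Fe and 10.4%, 10.5% and 10.6% in +Fe. The 21-nt clusters took 3.51%, 3.50% and 3.43% in -Fe and 3.84%, 3.88% and 3.96% in +Fe. The 23-nt clusters took 2.17%, 2.15% and 2.11% in -Fe and 2.24%, 2.25% and 2.21% in +Fe. In each of these classes the 2 conditions did not overlap, and the two-sided exact permutation test gave p = 0.1, the smallest that 3 against 3 allows (0.175 after adjustment over 7 classes). The 23-nt difference was lost without the 10 most abundant features. The mean share was then 9.11% in -Fe and 9.09% in +Fe, and the conditions overlapped. For the 21-nt class, the clusters at *MIR398a*, *MIR398b* and *MIR398c* carried the difference. Without them the share was 3.27% in -Fe (SD 0.028) and 3.26% in +Fe (SD 0.065), each over 3 libraries.

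**Figure D3:**
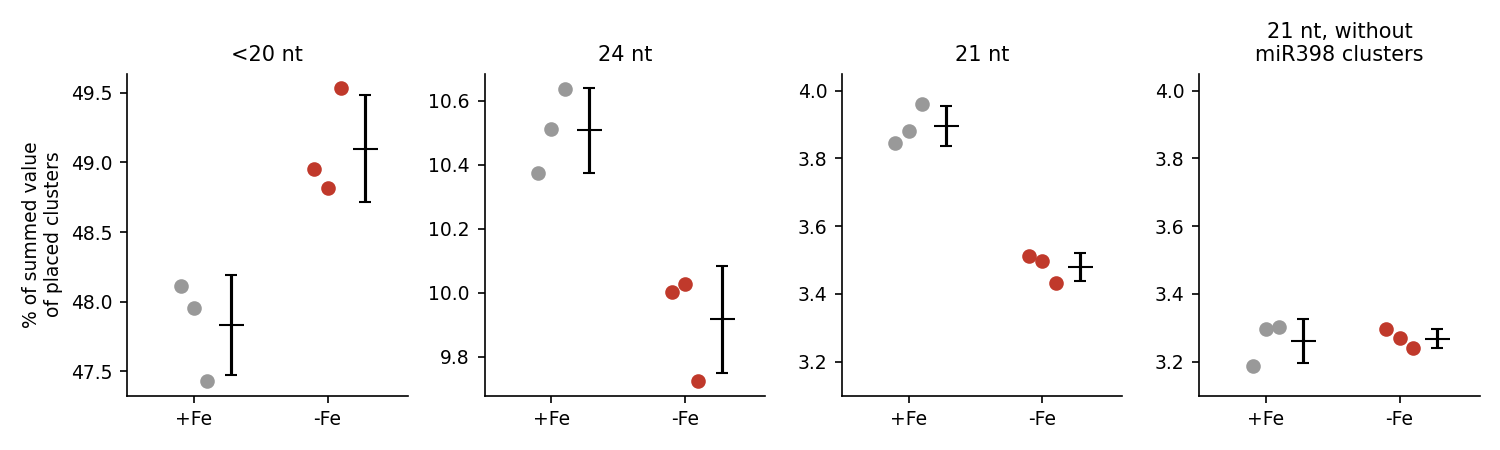
Share of the summed value of placed clusters, in percent, taken by clusters under 20 nt, of 24 nt and of 21 nt, and by 21-nt clusters without those at the miR398 genes; 1 point per library, with mean and SD. The axes do not start at 0; the 21-nt gap of 3.90% in +Fe to 3.48% in -Fe closes to 3.26% and 3.27% without miR398.

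Rises and falls also differed by annotation, which was not independent of length. Of the 89 clusters that rose, 84 overlapped a protein-coding gene (0.701% of 11985 such clusters), and 3 lay where no gene is annotated (0.0297% of 10106). Of the 69 that fell, 26 overlapped a protein-coding gene (0.217%) and 29 lay at no gene (0.287%). These counts of falls also rested on single libraries. The 29 at no gene became 6 without -Fe replicate 3, 7 without -Fe replicate 1, 10 without +Fe replicate 3, 51 without -Fe replicate 2 and 53 without +Fe replicate 1. The 26 at protein-coding genes became 13 without +Fe replicate 3 and 42 without +Fe replicate 1, and the 84 rises there became 53 without -Fe replicate 2. Pseudogenes and transposable element genes held 5335 clusters, of which 1 rose and 4 fell. Of 264 clusters at *MIR* genes, 0 rose and 7 fell. All 31 rises under 20 nt were at protein-coding genes. Among 24-nt clusters the order at protein-coding genes turned, with 8 rises (0.300%) and 15 falls (0.562%). At no gene, 24-nt clusters had 3 rises (0.0409%) and 23 falls (0.314%). The 84 rises fell on 75 genes, and 7 genes had more than 1: *BTS* had 4, and *bHLH38*, *BHLH100*, *CSD2*, *MPK3*, *TET8* and *ORG1* had 2 each.

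Where the leading RNA had a single match in the genome, its strand and place in the gene were read from TAIR10.1. At protein-coding genes, 66 of 68 clusters that rose were led by an RNA of the mRNA's own strand (97.1%), and 65 of 68 by an RNA in an exon (95.6%). Among all 9352 such clusters tested, 87.8% were sense and 85.8% exonic, but that comparison mixes lengths. With a leading RNA under 20 nt, 19 of 19 rises were sense, beside 97.7% of 2231 tested, and at 20 to 23 nt or over 24 nt 40 of 42 were (95.2%), beside 93.7% of 5063. At 24 nt, 7 of 7 rises were sense. Of the 24 clusters that fell, 16 were sense (66.7%) and 16 exonic. Of 24-nt clusters at protein-coding genes, 8 of the 15 that fell were sense (53.3%), as were 62.7% of all 2058 tested. The sense RNAs that rose had lengths from 17 to 28 nt, with no single size holding most of them. Whether they are Dicer products or pieces of the mRNA was not tested.

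**Figure D4:**
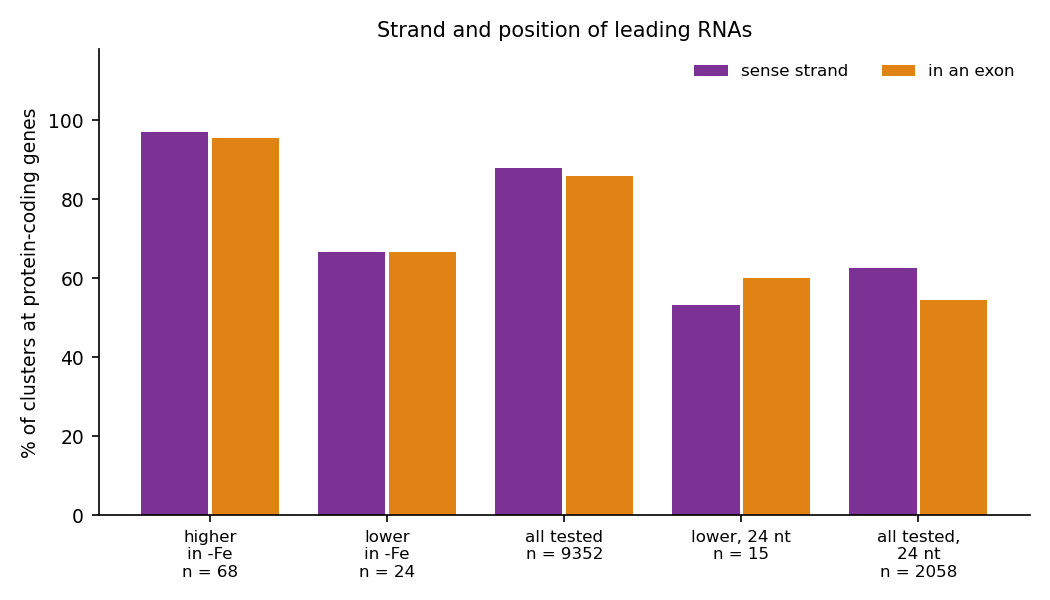
Percentage of clusters at protein-coding genes whose leading RNA lies on the sense strand (purple) or in an exon (orange), for clusters that passed and for all tested. Clusters higher in -Fe are 97.1% sense and 95.6% exonic, and those lower in -Fe 66.7% and 66.7%.

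Among the largest rises at annotated genes outside the *COS* locus were those at *TCH3*, *BCB* and *PHI-1*. Cluster_9694 at *TCH3*, a calmodulin-like protein gene, had log2 values of 7.98, 8.26 and 7.95 in -Fe and 6.75, 6.80 and 6.98 in +Fe (log2 fold change 1.22, standard error 0.13, adjusted p = 1.28e-05, limma). Its leading RNA has 2 genome matches. Cluster_17003 at *BCB*, a blue copper-binding protein gene, had 5.44, 5.48 and 5.49 in -Fe and 4.49, 4.19 and 4.49 in +Fe (log2 fold change 1.08, standard error 0.11, adjusted p = 1.28e-05, limma). Cluster_24775 at *PHI-1*, of the EXORDIUM family of cell expansion genes, had 5.89, 6.27 and 5.86 in -Fe and 4.61, 4.34 and 4.78 in +Fe. Of the 6 clusters at touch and cell wall genes, 3 rose (*PHI-1*, *TCH4* and *TCH3*), beside 0.268% of all features, and 0 fell, and 5 rose without +Fe replicate 1. *EXO* (log2 fold change 0.57) and *TCH2* (0.48) had an adjusted p of 0.106 each (limma). Further rises at cell wall protein genes were Cluster_2926 at *LRX3* (0.87), a leucine-rich extensin, and Cluster_16489 at *AGP15* (0.71), an arabinogalactan protein. Clusters at *MPK3*, a mitogen-activated protein kinase gene of defence signalling, rose by 0.67 (Cluster_14519) and 0.62 (Cluster_14520). The list of touch and cell wall genes was chosen with earlier results of these data known. The clusters at *LRX3*, *AGP15* and *MPK3* were named after their values were seen.

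The RNAs that led the largest rises with a leading RNA under 20 nt, inside their intervals, are shown with the first base in capitals, as an example of how short they are.
*PUP18*: Ucuacacucugcauaag
*AT2G14247*: Cuucgguuuucuuuggc
*SZF1*: Aaggagaagagcugaaua
*DIC2*: Ucggaaucaacauaguc
*PUP18* encodes a purine permease family member, *SZF1* a zinc finger protein and *DIC2* a mitochondrial dicarboxylate carrier. The *PUP18* RNA lies on chromosome 1 from 21441757 to 21441773 and the *AT2G14247* RNA on chromosome 2 from 6034576 to 6034592. Cluster_7284 at *AT2G14247* had log2 values of 4.51, 5.58 and 4.49 in -Fe and 3.69, 3.64 and 3.72 in +Fe, so that -Fe replicate 2 stood more than 1 unit above the other two.

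Genes of iron regulation and uptake had 29 clusters, of which 10 rose (34.5%, beside 0.268% of all features) and 0 fell, with a median log2 fold change of 0.48. The 10 lie at 5 genes. *BTS* encodes an E3 ligase that restrains the iron deficiency response, and Cluster_11125 in it had log2 values of 5.49, 6.30 and 5.67 in -Fe and 4.81, 4.79 and 4.97 in +Fe (log2 fold change 0.96, standard error 0.18, adjusted p = 0.0104, limma). *FRO3* encodes a mitochondrial ferric reductase, and Cluster_23668 in it had 4.57, 5.11 and 4.27 in -Fe and 3.77, 3.61 and 3.83 in +Fe (log2 fold change 0.91, standard error 0.14, adjusted p = 0.00245, limma). *bHLH38*, *bHLH39* and *BHLH100* encode transcription factors that switch on iron uptake. Cluster_15483 at *bHLH38* had 3.06, 3.99 and 2.95 in -Fe and 2.62, 2.59 and 2.64 in +Fe (log2 fold change 0.72, standard error 0.16, adjusted p = 0.0597, limma). Cluster_15485 at *bHLH39* had 2.63, 3.56 and 2.76 in -Fe and 2.28, 2.31 and 2.36 in +Fe (log2 fold change 0.66, standard error 0.15, adjusted p = 0.0453, limma). Clusters overlapping *ILR3*, *bHLH104* or *BHLH101* had log2 fold changes from -0.15 to 0.19 and did not pass. *OPT3*, an iron transporter gene of the phloem, had 4 clusters between 0.28 and 0.65, and the lowest adjusted p among them was 0.128 (limma).

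In these genes 1 library of each condition mostly stood farthest from the other condition. -Fe replicate 2 was the highest of the 3 -Fe libraries in 10 of the 10 iron clusters that rose and in 64 of all 89 rises. The lowest +Fe library was +Fe replicate 2 in 8 of the 10 and in 55 of the 89. Without -Fe replicate 2, 3 of the 29 iron clusters rose. The count was also 4 without +Fe replicate 2 and 3 without +Fe replicate 3. For falls the order differed: -Fe replicate 2 was the lowest -Fe library in 15 of 78, and in 2 of the 43 24-nt clusters. The highest +Fe library was +Fe replicate 3 in 47 of the 78 and in 34 of the 43.

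**Figure D5:**
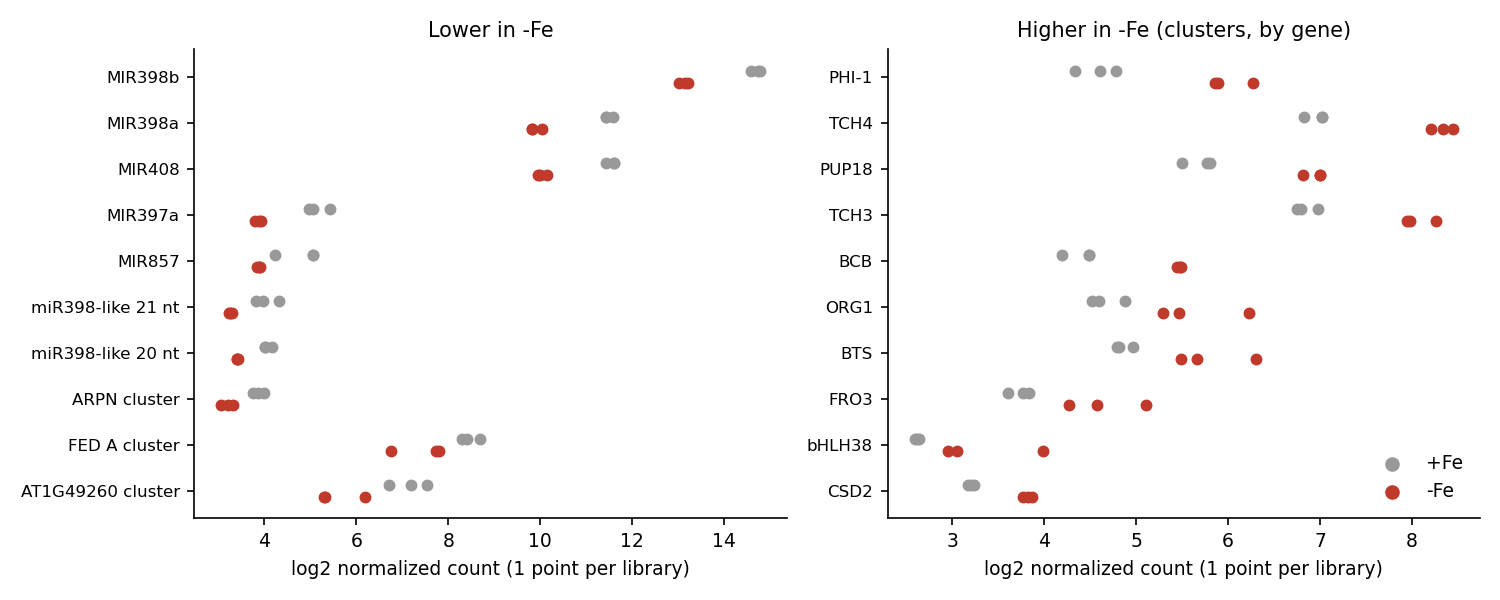
Log2 normalized counts of features lower in -Fe (left) and of clusters higher in -Fe named by gene (right), 1 point per library, +Fe in grey and -Fe in red. The 2 conditions do not overlap in any feature drawn, which follows largely from picking features that passed the test on these values. In *ORG1*, *BTS*, *FRO3* and *bHLH38* 1 red point, -Fe replicate 2, lies above the other two.

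Transcripts that the study's RNA-seq of shoots lists as lowered by iron deficiency had 59 clusters at 38 of 83 genes, of which 12 fell (20.3%, beside 0.235% of all features) and 0 rose. These include 4 miRNA clusters, at *MIR398b*, *MIR398c*, *MIR408* and *MIR857*, and 3 clusters at *FSD1*. Ferredoxin *FED A* (*FD2*) carries electrons from photosystem I, and Cluster_27703 in it had log2 values of 7.74, 6.76 and 7.80 in -Fe and 8.31, 8.68 and 8.41 in +Fe (log2 fold change -1.04, standard error 0.22, adjusted p = 0.0312, limma). *CAT3* encodes a catalase, a heme enzyme, and Cluster_23469 in it had 7.09, 6.33 and 7.06 in -Fe and 7.45, 7.74 and 7.40 in +Fe (log2 fold change -0.70, standard error 0.16, adjusted p = 0.0599, limma). -Fe replicate 2 was the lowest library in both. Outside that list, Cluster_21997 at *PSAN*, a subunit of photosystem I, had 8.83, 7.97 and 8.90 in -Fe and 9.27, 9.62 and 9.29 in +Fe (log2 fold change -0.83, standard error 0.18, adjusted p = 0.0344, limma), but its leading RNA does not match the genome within the cluster. The *FED A* cluster did not pass without -Fe replicate 2, +Fe replicate 2 or +Fe replicate 3. Of 16 alternatives, the *FED A* and *PSAN* clusters passed in 12 each and the *CAT3* cluster in 9. The 12 falls of the study's list became 8 without -Fe replicate 2 or +Fe replicate 3, and 13 without -Fe replicate 3. Genes of iron storage, ferredoxin and iron-sulfur proteins had 7 clusters, of which only the *FED A* cluster fell (14.3%, beside 0.235% of all features) and 0 rose. Those at *FER1* (-0.36) and *NEET* (-0.14) did not pass. The cluster at *FD1*, another ferredoxin gene, had 0.12, the only log2 fold change above 0 among the 7.

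Superoxide dismutases moved in both directions. Genes of superoxide dismutases and copper proteins had 17 clusters. Of these, 2 rose (11.8%, beside 0.268% of all features) and 3 fell (17.6%, beside 0.235%). *FSD1* encodes an iron superoxide dismutase, and 3 of its 4 clusters fell, with log2 fold changes of -1.15, -1.09 and -0.81. *CSD2* encodes the plastid copper/zinc enzyme, whose mRNA is a known target of miR398, and 2 of its 6 clusters rose. Cluster_8876 had 3.76, 3.56 and 3.64 in -Fe and 3.14, 3.11 and 3.11 in +Fe (log2 fold change 0.53, standard error 0.10, adjusted p = 0.0153, limma). Cluster_8881 had 3.77, 3.83 and 3.87 in -Fe and 3.24, 3.21 and 3.17 in +Fe (log2 fold change 0.61, standard error 0.14, adjusted p = 0.0625, limma). The other 4 *CSD2* clusters had 0.24 to 0.35. Cluster_22713 at *CSD1*, the cytosolic enzyme, had an adjusted p of 0.00552 (limma) with a log2 fold change of 0.45, under the limit of 0.5. Without -Fe replicate 1, 0 of the 2 *CSD2* clusters passed. The plastocyanin genes *DRT112* and *PETE1* had 0.14 each and did not pass.

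The 43 falls of 24-nt clusters had log2 fold changes from -1.54 to -0.51, with a median of -0.74. In 42 of them the conditions did not overlap, as in 76 of all 78 falls. Since they were picked by a test on the same libraries, this adds no separate evidence. Their median back-transformed value was 82.7, against 20.4 for all 24-nt clusters, and 23 of the 43 lay where no gene is annotated. Their leading RNAs began with A in 29 of 43 (67.4%), beside 74.2% of the 24-nt clusters that did not pass. The leading RNAs of several are shown with the first base in capitals, followed by that of the largest rise.
Cluster_26749, lower: Aagaccuuguggagcuuucccaua
Cluster_15993, lower: Guugaauggucuaagaauauguuu
Cluster_17452, lower: Aucaaacgcuucuuagaacaaaga
Cluster_2311, higher: Aggauguugaaacuuuuggauggu
Cluster_15993 lies on chromosome 5 from 701040 to 701325, at no gene, and had log2 values of 5.06, 5.74 and 5.08 in -Fe and 6.88, 6.39 and 6.75 in +Fe (log2 fold change -1.38, standard error 0.28, adjusted p = 0.0216, limma). Cluster_26749, at *AT1G49260*, had 5.29, 6.18 and 5.32 in -Fe and 6.70, 7.19 and 7.53 in +Fe. In both, -Fe replicate 2 was closest to +Fe, the reverse of its place at the iron genes. Cluster_2311 had 5.82, 5.83 and 5.93 in -Fe and 4.07, 4.63 and 4.06 in +Fe.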

How the data were processed

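The authors removed adapters with Cutadapt, found and counted sRNA loci with ShortStack and normalized with DESeq2 on build TAIR10. The values deposited are log2 normalized counts. They include negative numbers and vary little at low abundance, as a regularized logarithm would. Of the columns of values, 0 were unused. Depth is unknown, so intervals were not computed.

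Features were tested with limma 3.58.1 (R 4.3.3) in 1 fit over all 9 libraries, with eBayes and a trend. The limits are those the study's methods give. The fit was tested on simulated data. Clusters were set against TAIR10.1 by an overlap of 1 nt, on either strand. Summaries used Python 3.11.15.

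Named were the 8 largest rises and 8 largest falls of clusters without overlap, 5 of each among unplaced sequences, miRNA entries that passed, the largest rise and fall per length and abundance class, and list members that passed. Members and lists were chosen with earlier results of these data known. Alternatives were other filters, scalings, limits and fits, and each library left out in turn.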

Additional observations from a re-analysis of the deposited data

How the results depend on the processing

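Each of the 7 miRNA entries passed under every alternative except the filter on values of at least 50, which left 4, and a change of at least 1, which left 6. With values of at least 50, 37 features passed, 18 higher and 19 lower, with 15 falling clusters, 0 falling unplaced sequences, 6 rises under 20 nt and 8 falls at 24 nt. With a change of at least 1, 27 passed, 8 higher and 19 lower, with 13 falling clusters, 0 unplaced sequences, 3 rises under 20 nt and 3 falls at 24 nt. An FDR under 0.05 gave 51 falls, 42 of clusters and 23 at 24 nt. eBayes without a trend gave 51, 42 and 24, and only the 6 libraries 131, 121 and 84. Quantile normalization gave 25 falls at 24 nt.

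With the replicate number as a block, 227 features passed, 131 of them lower, with 122 falling clusters and 85 falls at 24 nt. The numbers did not pair the libraries: the correlations of deviations between libraries of the same number were 0.12, -0.05 and -0.08, so this fit is given here only.

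With 1 library left out, the features that fell ranged from 40 to 136, falling clusters from 30 to 127, falling unplaced sequences from 2 to 4, rises under 20 nt from 17 to 36 and falls at 24 nt from 10 to 90. The low counts of falls came without -Fe replicate 1, -Fe replicate 3 or +Fe replicate 3. Without the 10 most abundant features, the share of 21-nt clusters differed by -1.06 percentage points and that of 24-nt clusters by -0.84. The share under 20 nt differed by 0.60 (1.27 with them). That of 23-nt clusters differed by 0.02 (-0.09 with them) and that over 24 nt by 0.49 (-0.24 with them). Without the miR398 clusters, an alternative chosen after seeing the data, the 21-nt difference was 0.0065. Of 52 named features, 33 passed in every other fit and filter they could be fitted in, 23 of them also at an FDR under 0.05 and a change of at least 1, and 0 changed sign. The cause of these changes was not tested.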
